A study of Mus musculus with 13 samples.

Results

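The laminins and their partners in the basement membrane were followed through 13 RNA-seq libraries of mouse tissue. They were 10 genes, Lama2, Lama4, Lama5, Lamb1, Lamb2, Lamc1, Nid1, Nid2, Hspg2 and Fbln2, of 55416 Ensembl rows in a table of whole read counts. The genes were chosen by symbol, with earlier results of these libraries known, so their differences between groups are given as a description and no p-value below is independent support for the choice. PDGFB tumors (n = 5) were glioblastomas raised in CNP-Cre mice, which make Cre from the oligodendrocyte gene Cnp, in the motor cortex, with a lentivirus that carried PDGFB and a short hairpin against p53. RAS tumors (n = 5) differed in that the virus carried HRasV12, an active form of HRas, in place of PDGFB, again with a hairpin against p53. GFP+ tumor was dissected from 5 animals of each kind once they had reached the endpoint. Normal brain (n = 3) carries the genotype label WT. Normal tissue was trimmed off the tumors, and whether these samples are that tissue is not stated. Their titles carry the letter M or F, and 1 title begins with other letters than the rest. No region, sex or count of animals is given for them. Brain region, genotype and tumor therefore cannot be told apart in a comparison with them. No age is given for any mouse.

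A basement membrane is a thin sheet of matrix on which endothelial and epithelial cells rest. In the brain it surrounds the blood vessels and underlies the pia. Laminins, each a trimer of an alpha, a beta and a gamma chain, polymerize into its inner network and bind cells through integrins and dystroglycan. Type IV collagen forms the other network. Nidogens and the heparan sulfate proteoglycan perlecan, the product of Hspg2, join the networks, and fibulin-2, the product of Fbln2, binds to them from the surrounding matrix.

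The libraries held 529162 to 643055 reads counted for a gene (median 608897), out of 13952738 to 15607754 reads in all, and 95.2% to 95.7% of the uniquely mapped reads fell in no gene. A single read was worth 1.56 to 1.89 counts per 1000000 gene reads (CPM), so a gene with under 10 reads in every library is known only roughly. The strand setting of the count is not given in the sources used here. A gene name below therefore means the reads deposited under it, and 3 of the 10 genes have an exon of another gene on their opposite strand. With bulk tissue, fewer cells of a type and less RNA per cell cannot be told apart. P-values measure the spread among these libraries, and counting intervals and floors cover counting error only.

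The reads under the 10 genes together came to 64.4 ± 10.9 CPM (SD, n = 3) in normal brain, 77.5 ± 22.3 CPM (SD, n = 5) in PDGFB tumors and 407 ± 113 CPM (SD, n = 5) in RAS tumors. The lowest RAS tumor, at 249 CPM, stood above the highest library of the other groups, at 108 CPM. A filter on low counts kept 6 of the 10 genes for testing: Lama4, Lamb1, Lamc1, Nid1, Hspg2 and Fbln2. Lama2, Lama5, Lamb2 and Nid2 fell below it. A gene high in 1 tumor group could pass the filter through that group alone, so the 6 are not a sample of the 10. Tests were edgeR's quasi-likelihood test with Benjamini-Hochberg adjustment over 7722 genes, two-sided, and a gene was called at an adjusted p under 0.05.

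Of the 6 tested genes, 3 were called between PDGFB tumors and normal brain, 2 of them higher and 1 lower, where 45.3% of all genes tested were called, 20.2% higher and 25.1% lower. All 6 were higher in RAS tumors than in normal brain, where 56.2% of all genes tested were called, 26.9% higher and 29.3% lower. RAS tumors exceeded PDGFB tumors for 5 of the 6 and for none was the reverse called, where 32.1% of all genes tested were called, 17.4% higher and 14.6% lower. Both comparisons with normal brain share its 3 libraries, and the comparison between tumors shares libraries with each of them. Scaling by library totals in place of TMM moved the median log2 fold change of all genes by 0.23, 0.09 and -0.14 in these 3 comparisons. It turned the split of all called genes from 1558 higher and 1940 lower to 2045 and 1556 between PDGFB tumors and normal brain, and from 1346 and 1130 to 1075 and 1445 between the tumors. No tested gene of the 10 changed direction with it.

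**Figure D1:**
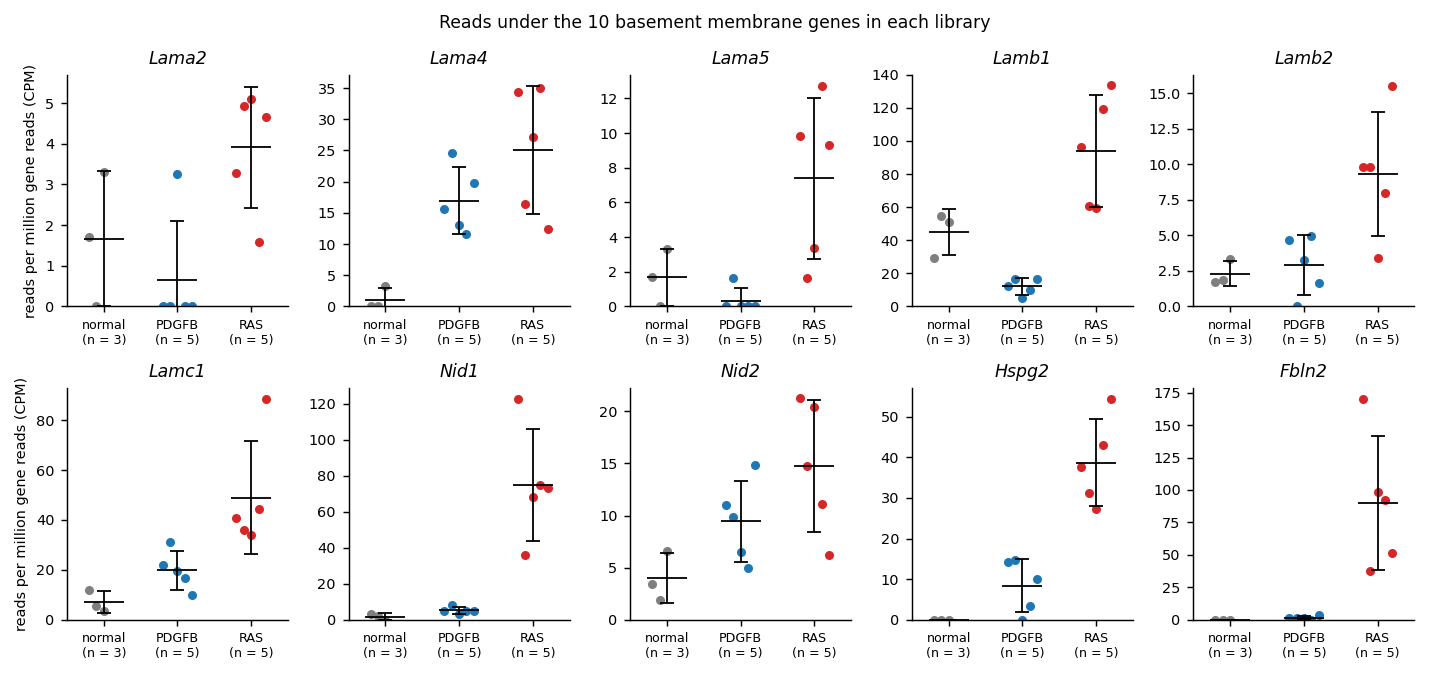
CPM of the 10 genes in each library, with 1 panel per gene and its own vertical axis. Points are libraries of normal brain (n = 3), PDGFB tumors (n = 5) and RAS tumors (n = 5), horizontal bars the group mean and whiskers 1 SD. Lamb1 lies between 4.89 and 16.5 CPM in PDGFB tumors, below all normal libraries, while Nid1, Hspg2 and Fbln2 are near 0 in normal brain and highest in RAS tumors.

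Among the alpha chains, Lama4 was the sole gene with enough reads to test. It encodes the alpha chain typical of vascular basement membranes. Lama4 lies on chromosome 10 (38965515 to 39110188, plus strand, GRCm38) with no annotated gene opposite it. It had 0, 0 and 2 reads in the normal libraries, 10, 15, 8, 7 and 12 in PDGFB tumors 1 to 5, and 21, 10, 16, 22 and 8 in RAS tumors 1 to 5. Every tumor library was above every normal one, and the tumor groups overlapped. Its level was 1.10 ± 1.91 CPM (SD, n = 3) in normal brain, 17.0 ± 5.32 CPM (SD, n = 5) in PDGFB tumors and 25.1 ± 10.3 CPM (SD, n = 5) in RAS tumors.

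With so few normal reads, the change of Lama4 is best read as a ratio of summed counts. That ratio was 14.6 (95% counting interval 3.84 to 124) for PDGFB tumors over normal brain (edgeR adjusted p = 0.00162). It was 21.5 (5.76 to 181) for RAS tumors over normal brain (edgeR adjusted p = 1.41e-04). Both normal reads came from normal library 3. Without it the normal group is at 0, and the fitted log2 fold changes moved from 3.44 to 6.30 and from 4.14 to 6.99. Between RAS and PDGFB tumors the log2 difference was 0.70 ± 0.38 (SE), which did not pass (edgeR adjusted p = 0.172). Lama4 was the tested gene of the 10 for which a difference between the tumors was not called.

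Lama2 and Lama5 stayed at a few reads per library. Lama2 encodes an alpha chain of muscle and of the glial side of brain vessels, and its loss causes a congenital muscular dystrophy. It had 1, 0 and 2 reads in normal brain, 2 reads in PDGFB tumor 3 with 0 in the other 4, and 2, 3, 3, 1 and 3 reads in the RAS tumors. Lama5, an alpha chain of mature vessels and epithelia on chromosome 2 (180176373 to 180225859, minus strand), had 1, 0 and 2 normal reads, 1 read in all PDGFB tumors together, and 6, 1, 2, 8 and 6 reads in the RAS tumors. In a fit without the filter on low counts, Lama5 was higher in RAS than in PDGFB tumors, by 3.89 on the log2 scale (edgeR adjusted p = 0.00188). The ratio of its reads, 23 against 1, was 22.9 (95% counting interval 3.72 to 944). In the same fit Lama2 passed in no comparison, with edgeR adjusted p from 0.145 to 0.585.

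Among the beta chains, Lamb1 was the more abundant and the only tested gene of the 10 to fall in a tumor group. Lamb1 encodes the beta chain of the most widespread laminins and lies on chromosome 12 (31265234 to 31329644, plus strand), with no annotated gene opposite it. It had 17, 29 and 31 reads in normal brain, 8, 10, 3, 6 and 10 in PDGFB tumors 1 to 5, and 59, 37, 35, 75 and 86 in RAS tumors 1 to 5. The 3 groups did not overlap: PDGFB tumors were lowest, normal brain lay between, and RAS tumors were highest.

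The level of Lamb1 was 45.0 ± 14.0 CPM (SD, n = 3) in normal brain, 12.1 ± 4.88 CPM (SD, n = 5) in PDGFB tumors and 94.0 ± 33.6 CPM (SD, n = 5) in RAS tumors. PDGFB tumors stood 4.33-fold below normal brain (log2 -2.11 ± 0.40 SE, edgeR adjusted p = 4.49e-04). RAS tumors exceeded PDGFB tumors 8.56-fold (log2 3.10 ± 0.35 SE, edgeR adjusted p = 6.89e-06). The rise from normal brain to RAS tumors was 1.98-fold (log2 0.98 ± 0.36 SE, edgeR adjusted p = 0.0281). That last call rested on normal library 1, which had the fewest Lamb1 reads: without it, the log2 difference was 0.79 and the edgeR adjusted p 0.119. Lamb2, the beta chain of synaptic and kidney basement membranes, on chromosome 9 (108479736 to 108490530, plus strand), had 1, 1 and 2 reads in normal brain, 3, 0, 2, 3 and 1 in PDGFB tumors, and 6, 6, 2, 5 and 10 in RAS tumors. The ratio of Lamb2 reads in RAS to PDGFB tumors was 3.21 (95% counting interval 1.48 to 7.71). Without the filter, Lamb2 was not called in any comparison, and the smallest edgeR adjusted p was 0.0847, between the tumors.

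Lamc1, the gamma chain shared by most laminins, rose in RAS tumors. It lies on chromosome 1 (153218922 to 153332786, minus strand). It had 7, 3 and 2 reads in normal brain, 14, 19, 12, 10 and 6 in PDGFB tumors 1 to 5, and 25, 22, 20, 28 and 57 in RAS tumors 1 to 5. RAS tumors lay above the other groups, RAS tumor 5 far above its group, and PDGFB tumor 5 overlapped the normal libraries. Lamc1 averaged 6.97 ± 4.45 CPM (SD, n = 3) in normal brain, 19.8 ± 7.79 CPM (SD, n = 5) in PDGFB tumors and 48.8 ± 22.6 CPM (SD, n = 5) in RAS tumors.

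RAS tumors exceeded normal brain 6.49-fold for Lamc1 (SE 0.51 on the log2 scale, edgeR adjusted p = 2.68e-04). They exceeded PDGFB tumors 2.73-fold (log2 1.45 ± 0.36 SE, edgeR adjusted p = 0.00532). Between PDGFB tumors and normal brain the log2 difference was 1.25 ± 0.55 (SE) and did not pass (edgeR adjusted p = 0.0732). Over the alternatives that p lay between 0.0233 and 0.217, and 8 of them put it under the threshold. Normal library 1, with the most Lamc1 reads of its group, moved the values most: without it, the log2 difference was 1.98 for PDGFB tumors (edgeR adjusted p = 0.0327) and 3.38 for RAS tumors.

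The nidogens differed in level, Nid1 being the more abundant in RAS tumors. Nid1 lies on chromosome 13 (13437551 to 13512269, plus strand) and Nid2 on chromosome 14 (19751265 to 19811787, plus strand). Nid1 had 2, 1 and 0 reads in normal brain, 3, 5, 2, 3 and 3 in PDGFB tumors 1 to 5, and 75, 22, 40, 47 and 47 in RAS tumors 1 to 5. The lowest RAS tumor, with 22 reads, stood above the highest other library, with 5. Nid1 averaged 1.77 ± 1.71 CPM (SD, n = 3) in normal brain, 5.22 ± 1.82 CPM (SD, n = 5) in PDGFB tumors and 74.9 ± 31.0 CPM (SD, n = 5) in RAS tumors.

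RAS tumors exceeded PDGFB tumors 15.3-fold for Nid1 (log2 3.93 ± 0.39 SE, edgeR adjusted p = 2.06e-06). Over normal brain, with 3 reads in all, the ratio of summed counts was 43.0 (95% counting interval 14.5 to 210, edgeR adjusted p = 2.34e-06). Without normal library 1, which held 2 of the 3 reads, the fitted log2 fold change moved from 5.19 to 6.07. PDGFB tumors over normal brain gave a ratio of 2.99 (0.856 to 16.0), which did not pass (edgeR adjusted p = 0.219). Nid2, which overlaps Nid1 in function, was scarcer in RAS tumors and more even between groups, with 2, 1 and 4 reads in normal brain, 7, 6, 4, 3 and 9 in PDGFB tumors, and 13, 9, 12, 7 and 4 in RAS tumors. All 3 groups overlapped for Nid2. Without the filter, Nid2 was higher in RAS tumors than in normal brain by 1.77 on the log2 scale (edgeR adjusted p = 0.0374), with edgeR adjusted p = 0.330 for PDGFB tumors over normal brain and 0.397 between the tumors.

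Hspg2, whose product perlecan also holds growth factors on its heparan sulfate chains, had no read in normal brain. It lies on chromosome 4 (137468769 to 137570630, plus strand) with no annotated gene opposite it. Hspg2 had 0 reads in each normal library, 9, 9, 0, 2 and 6 in PDGFB tumors 1 to 5, and 23, 19, 16, 27 and 35 in RAS tumors 1 to 5. PDGFB tumor 3, at 0, overlapped normal brain, and RAS tumors overlapped neither other group. A count of 0 over the 3 normal libraries allows a level of up to 1.74 CPM (3 reads over the group). Against that floor the mean of Hspg2 was 4.83-fold higher in PDGFB tumors (edgeR adjusted p = 0.0103) and 22.2-fold higher in RAS tumors (edgeR adjusted p = 6.77e-05). With the counting error of both groups included, the lower 95% limits of the count ratio were 3.68 and 17.9. The call for PDGFB tumors was lost with limma-voom (adjusted p = 0.0598). RAS tumors, at 38.7 ± 10.7 CPM (SD, n = 5), exceeded PDGFB tumors, at 8.42 ± 6.56 CPM (SD, n = 5), 4.99-fold (log2 2.32 ± 0.48 SE, edgeR adjusted p = 0.00193).

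Fbln2 had the largest fold between the tumors of the 6 tested genes. Its product fibulin-2 is a matrix protein of developing and remodelling vessels and heart valves. Fbln2 lies on chromosome 6 (91212455 to 91272540, plus strand) with no annotated gene opposite it. It had 0 reads in each normal library, 1, 1, 1, 0 and 2 in PDGFB tumors 1 to 5, and 104, 23, 58, 58 and 33 in RAS tumors 1 to 5. PDGFB tumor 4, at 0, overlapped normal brain, and RAS tumors overlapped neither other group.

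Fbln2 stood at 90.0 ± 51.8 CPM (SD, n = 5) in RAS tumors and at 1.63 ± 1.17 CPM (SD, n = 5) in PDGFB tumors. The difference was 53.5-fold (log2 5.74 ± 0.56 SE, edgeR adjusted p = 2.91e-06). Against the floor of 3 reads over the normal group, the mean of RAS tumors was 51.7-fold higher (edgeR adjusted p = 5.00e-06). The lower 95% limit of the count ratio, with the counting error of both groups, was 41.5. The PDGFB mean lay under that floor, so no fold is given, and the test did not pass (edgeR adjusted p = 0.189).

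**Figure D2:**
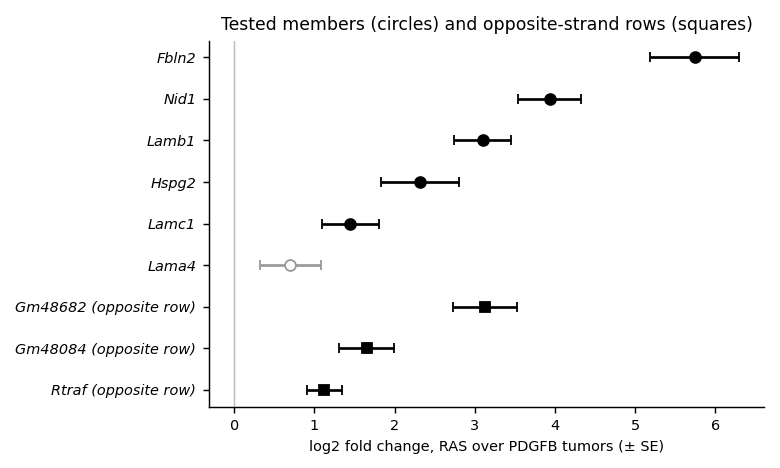
Log2 fold change of RAS over PDGFB tumors (5 libraries each), with bars of 1 standard error, for the 6 tested genes (circles) and for the 3 genes whose exons lie opposite Nid1, Lama2 and Nid2 (squares). Filled symbols passed an edgeR adjusted p under 0.05, and the open circle, Lama4 at 0.70, did not. Fbln2 is farthest to the right at 5.74.

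The make-up of the group was compared per kilobase of exon, since longer genes collect more reads. Lamb1 made up 63.0% ± 14.4 (SD, n = 3) of the summed per-kilobase level of the 10 genes in normal brain, followed by Lamc1 at 12.8% ± 9.87. In PDGFB tumors Lamc1 led with 27.2% ± 8.82 (SD, n = 5), before Nid2 at 20.1% ± 6.15, Lama4 at 15.5% ± 1.82 and Lamb1 at 13.2% ± 3.71. In RAS tumors Fbln2 led with 26.9% ± 9.45 (SD, n = 5), before Nid1 at 20.9% ± 2.75 and Lamb1 at 19.1% ± 5.46. Of the neighbours named here, Lamb1 and Lamc1 in normal brain differed by more than their SDs, and the others by less than the larger of theirs.

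Ratios between partners differed between the groups as well. Lamb1 stood at 2.03 to 12.9 times Lamc1 per kilobase in the normal libraries, 0.209 to 1.39 times in PDGFB tumors and 1.26 to 2.23 times in RAS tumors. Nid1 stood at 0.248 to 0.745 times Nid2 in PDGFB tumors and at 1.82 to 8.76 times Nid2 in RAS tumors, with no overlap between the tumor groups. On the same scale Lama4 was at 1.41 ± 0.441 CPM per kilobase (SD, n = 5) in PDGFB tumors and 2.08 ± 0.853 in RAS tumors (SD, n = 5). It was the most abundant of the 3 alpha chains in both tumor groups. In RAS tumors the alpha chains were all scarcer per kilobase than Lamb1, at 9.47 ± 3.39 (SD, n = 5), and than Lamc1, at 5.90 ± 2.74 (SD, n = 5).

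**Figure D3:**
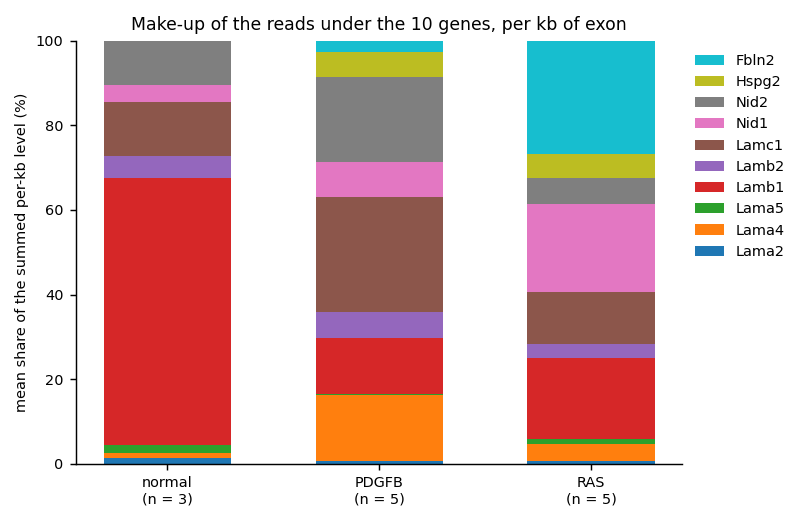
Mean share of each of the 10 genes in their summed level per kilobase of exon (CPM per kilobase, share in percent), stacked by group: normal brain (n = 3), PDGFB tumors (n = 5) and RAS tumors (n = 5). Lamb1 takes 63.0% in normal brain, Lamc1 27.2% in PDGFB tumors and Fbln2 26.9% in RAS tumors.

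No RAS tumor was high or low for all of the 6 tested genes. RAS tumor 5 was highest for 3 of them (Lamb1, Lamc1 and Hspg2), RAS tumor 1 for 2 (Nid1 and Fbln2) and RAS tumor 4 for Lama4. RAS tumor 3 was lowest for Lamb1, Lamc1 and Hspg2, RAS tumor 2 for Nid1 and Fbln2, and RAS tumor 5 for Lama4. The highest RAS tumor exceeded the lowest 2.25-fold for Lamb1, 3.40-fold for Nid1 and 4.51-fold for Fbln2.

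The 3 promoters below are shown because Nid1, Hspg2 and Lamb1 were called higher in RAS than in PDGFB tumors and have a RefSeq entry that reaches upstream of their annotated start. They are the bases of the plus strand that end just before the annotated start of each gene, 5′ to 3′, from RefSeq tables of GRCm38.p6. They lie at chr13:13437352-13437550 (199 bases), chr4:137468553-137468768 (216 bases) and chr12:31265043-31265233 (191 bases). Capitals mark the GC box, GGGCGG on either strand, a sequence that factors of the SP1 family bind.
Nid1: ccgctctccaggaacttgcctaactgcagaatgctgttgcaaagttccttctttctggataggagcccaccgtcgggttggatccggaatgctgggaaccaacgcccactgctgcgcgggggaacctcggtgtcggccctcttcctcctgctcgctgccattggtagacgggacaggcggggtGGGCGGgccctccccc
Hspg2: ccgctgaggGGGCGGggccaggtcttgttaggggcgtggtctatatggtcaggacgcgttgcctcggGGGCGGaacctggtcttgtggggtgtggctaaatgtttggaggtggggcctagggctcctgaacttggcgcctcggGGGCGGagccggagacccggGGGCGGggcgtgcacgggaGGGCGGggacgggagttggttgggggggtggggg
Lamb1: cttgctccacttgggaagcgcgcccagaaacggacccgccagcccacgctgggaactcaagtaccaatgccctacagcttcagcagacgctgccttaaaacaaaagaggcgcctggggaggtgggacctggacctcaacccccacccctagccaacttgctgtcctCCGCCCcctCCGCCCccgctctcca

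The printed stretches hold 1 GC box for Nid1, 5 for Hspg2 and 2 for Lamb1. The RefSeq table held a promoter for 7 of the 10 genes, with none for Lama4, Lamc1 and Nid2. In the 250 bases before the RefSeq start, 5 of the 7 had a GC box on either strand, as did 32.7% of 32851 windows of the same length. The median GC content was 62.0% for the 7 and 52.4% for all windows. The AP-1 motif TGANTCA was in 0 of the 7 and in 6.75% of all windows, and TATAAA in 0 of the 7 and in 12.4%. The motifs do not overlap one another, and a match or its lack is a statement about letters in these windows only.

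The rows on the opposite strand were read beside their partners. Of the 10 genes, 3 had an exon of another gene opposite an exon of their own: Gm48682 opposite Nid1, Rtraf opposite Nid2 and Gm48084 opposite Lama2. In addition Gm8818 lies opposite an intron of Lamc1, with 2 reads in all 13 libraries, and 6 genes had no gene opposite them. In every library each of these 3 opposite rows held more reads than its partner. Of the 3 overlaps, the Nid1 overlap is shown. Its 143 bases lie in coding sequence, in exon 8 of Nid1 (246 bases) and exon 1 of Gm48682 (285 bases), at chr13:13482121-13482263 (GRCm38). They are given on the plus strand, the strand of Nid1.
Nid1 exon overlap: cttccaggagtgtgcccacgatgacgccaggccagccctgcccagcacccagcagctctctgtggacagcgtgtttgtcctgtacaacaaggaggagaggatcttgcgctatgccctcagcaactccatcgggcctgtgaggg

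Gm48682, a predicted gene on chromosome 13 (13474343 to 13482405, minus strand), had 6, 2 and 5 reads in normal brain, 32, 28, 22, 20 and 17 in PDGFB tumors 1 to 5, and 354, 84, 79, 306 and 133 in RAS tumors 1 to 5. The 3 groups did not overlap, and in every library the row held more reads than Nid1. Per kilobase of exon it stood at 256 ± 173 CPM (SD, n = 5) in RAS tumors, against 10.8 ± 4.47 for Nid1 (SD, n = 5). RAS tumors exceeded PDGFB tumors 8.77-fold (log2 3.13 ± 0.40 SE, edgeR adjusted p = 2.09e-05), and PDGFB tumors exceeded normal brain by 2.10 on the log2 scale (edgeR adjusted p = 0.0110).

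Nid1 held 18.8% of the reads of this pair in normal brain, 11.9% in PDGFB tumors and 19.5% in RAS tumors. The share ranged from 13.3% to 33.6% over the RAS tumors. With the reads of both strands summed, Nid1 was higher in PDGFB tumors than in normal brain, by 2.08 on the log2 scale (edgeR adjusted p = 0.00545), a call that its own reads did not give. RAS tumors exceeded PDGFB tumors by 3.27 on the summed counts (edgeR adjusted p = 5.38e-06). Without the strand setting, reads of Nid1 and reads of Gm48682 cannot be told apart.

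Rtraf, the gene of an RNA transcription, translation and transport factor on chromosome 14 (19811351 to 19823824, minus strand), meets Nid2 tail to tail over 437 bases. It had 13, 8 and 10 reads in normal brain, 66, 69, 34, 51 and 75 in PDGFB tumors, and 109, 107, 120, 141 and 106 in RAS tumors. The groups did not overlap, and Nid2 held 18.4%, 8.95% and 7.17% of the reads of the pair. Rtraf was higher in RAS than in PDGFB tumors by 1.12 ± 0.22 on the log2 scale (edgeR adjusted p = 8.54e-04). The summed count of the pair was higher in RAS than in PDGFB tumors by 1.10 on the log2 scale (edgeR adjusted p = 0.00101). Rtraf is itself a coding gene, so that sum is not taken as a value of Nid2 alone. Without the strand setting, reads of Nid2 and reads of Rtraf cannot be told apart.

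Gm48084, on chromosome 10 (26949740 to 26982036, plus strand), overlaps the 3′ end of Lama2 over 631 bases. It had 13, 4 and 13 reads in normal brain, 5, 11, 11, 10 and 14 in PDGFB tumors, and 36, 24, 41, 15 and 31 in RAS tumors. RAS tumors lay above the others, by 1.65 ± 0.35 on the log2 scale over PDGFB tumors (edgeR adjusted p = 0.00157), and the other groups overlapped (edgeR adjusted p = 0.632). Lama2 itself held 9.09%, 3.77% and 7.55% of the reads of the pair in normal brain, PDGFB tumors and RAS tumors.

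**Figure D4:**
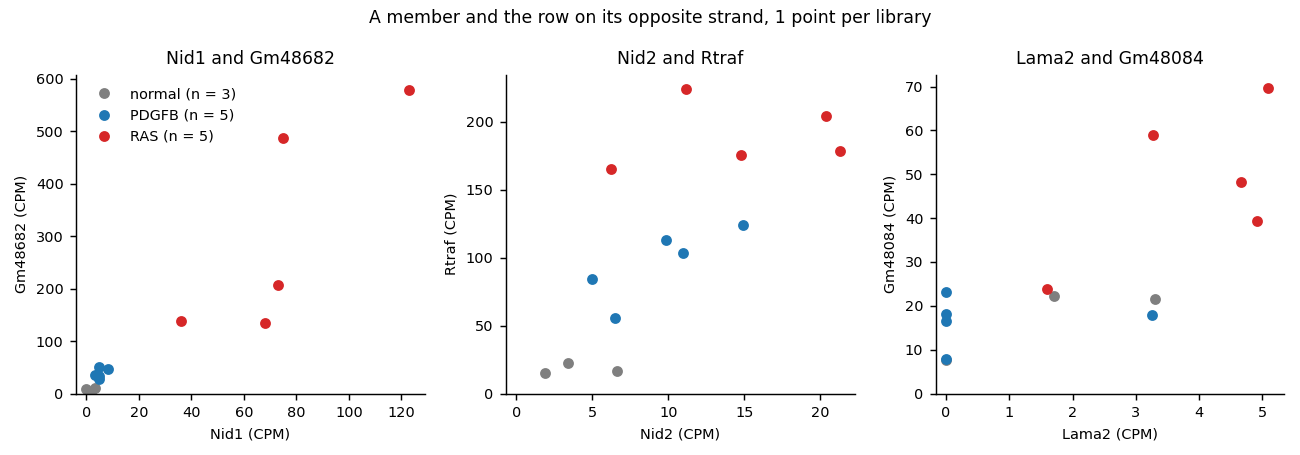
CPM of Nid1, Nid2 and Lama2 (horizontal axes) against those of the gene on the opposite strand, Gm48682, Rtraf and Gm48084 (vertical axes), with 1 point per library: normal brain (n = 3), PDGFB tumors (n = 5) and RAS tumors (n = 5). The opposite row is the higher of the pair in every library, and Gm48682 reaches 579 CPM in RAS tumor 1.

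A list of 67 other basement membrane genes (further laminin chains, collagen chains, fibulins and other matrix proteins, receptors and enzymes) was read in the same fit, and 28 of them could be tested. Between PDGFB tumors and normal brain 12 were higher, 4 lower and 12 not called, where 20.2% of all genes tested were higher and 25.1% lower, with a median log2 fold change of 1.07, beside -0.00 for all genes tested. Between RAS tumors and normal brain 23 were higher, 3 lower and 2 not called, where 26.9% of all genes were higher and 29.3% lower, with a median of 2.95 beside 0.02. Between RAS and PDGFB tumors 16 were higher, 1 lower and 11 not called, where 17.4% of all genes were higher and 14.6% lower, with a median of 1.28 beside -0.03.

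The laminin chains Lama1, Lama3, Lamb3 and Lamc3 had at most 5 reads in any group and were not tested. Of the collagen chains, 4 of 8 were tested, and all 4 were higher in RAS tumors than in normal brain, beside 26.9% of all genes. Col4a1 and Col4a2, the chains of the commonest type IV collagen, lie on opposite strands and overlap each other. Col4a1 held 6.30 ± 2.38 CPM (SD, n = 3) in normal brain, 125 ± 24.9 CPM in PDGFB tumors and 103 ± 35.4 CPM in RAS tumors (SD, n = 5 each). It was 16.2-fold higher in PDGFB tumors than in normal brain (edgeR adjusted p = 1.94e-06), and between the tumors it was not called (log2 -0.12, edgeR adjusted p = 0.752). The other 3 collagen chains tested were higher in RAS than in PDGFB tumors: Col4a2 3.09-fold (edgeR adjusted p = 0.00142), Col18a1 3.53-fold (edgeR adjusted p = 0.00698) and Col15a1 5.08-fold (edgeR adjusted p = 0.0111). An exon of Gm12426 lies opposite Col15a1. These chains were named after their values were seen.

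Of the receptors, 9 of 15 were tested, of which 8 were higher in RAS tumors than in normal brain and 6 higher and 1 lower in RAS than in PDGFB tumors. Of all genes tested, 26.9% were higher in the first of these comparisons, and 17.4% higher and 14.6% lower in the second. Itgb1, the beta chain of most integrins that bind laminin or collagen, rose from 36.2 ± 16.5 CPM (SD, n = 3) in normal brain to 831 ± 363 CPM (SD, n = 5) in RAS tumors, 21.6-fold (edgeR adjusted p = 2.99e-07). Itga6, an alpha chain that binds laminin, was 11.4-fold higher in RAS than in PDGFB tumors (edgeR adjusted p = 1.19e-05). Itga5, the alpha chain of the fibronectin receptor, was 10.1-fold higher in the same comparison (edgeR adjusted p = 2.24e-04). Cd151, a tetraspanin that partners laminin-binding integrins, was 16.5-fold higher in RAS tumors than in normal brain (edgeR adjusted p = 7.93e-05). An exon of Gm10575 lies opposite Cd151. Itga1 and Itga2, alpha chains that bind collagen, led the receptors in PDGFB tumors: Itga2 had 138 reads there and 3 in normal brain, a ratio of 25.8 (95% counting interval 8.65 to 127). The ratio for Itga1 was 17.0 (6.46 to 63.3), from 121 and 4 reads. Itga1 was the 1 gene of the list called lower in RAS than in PDGFB tumors, by -1.15 on the log2 scale (edgeR adjusted p = 0.0260), and was named for that after its values were seen.

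Of the matrix proteins and enzymes, Tinagl1, Serpinh1 and Ntn4 stood out by size. Tinagl1, a laminin-binding matrix protein, had 84 reads in RAS and 4 in PDGFB tumors, a ratio of 20.9 (95% counting interval 7.87 to 78.6, edgeR adjusted p = 3.19e-04). Serpinh1, the collagen chaperone, was 9.15-fold higher in RAS than in PDGFB tumors (edgeR adjusted p = 1.15e-05). Ntn4, a netrin that binds the laminin gamma chain, had 46 reads in PDGFB tumors and 2 in normal brain, a ratio of 12.9 (95% counting interval 3.37 to 110). The enzymes Plod3 and Colgalt1, which add hydroxyl groups or sugars to collagen, were lower in both tumor groups than in normal brain. The laminin receptor chain Itgb4 was lower in PDGFB tumors. Exons of Znhit1, Unc13a and B230344G16Rik lie opposite Plod3, Colgalt1 and Itgb4. Without the strand setting, the reads of each pair cannot be told apart. Plod3, Colgalt1 and Itgb4 were named after their values were seen.

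Markers of cell types that build or border basement membranes were summed in every library. The 15 endothelial markers summed to 41.3 to 52.9 CPM in normal brain and 23.1 to 85.4 CPM in PDGFB tumors. In RAS tumors they summed to 86.6 to 146 CPM. The lowest RAS tumor stood above the highest PDGFB tumor by less than the worth of a single read. The sole endothelial marker with enough reads to test was Slc2a1, at means of 14.1, 20.5 and 38.2 CPM in normal brain, PDGFB and RAS tumors. Mean Egfl7 was also highest in RAS tumors, at 16.7 CPM, against 1.65 CPM in PDGFB tumors. Mean Slco1a4 was lower in RAS tumors, at 1.30 CPM, than in normal brain, at 5.18 CPM. Mean Vwf was highest in PDGFB tumors, at 8.75 CPM. Cldn5, Erg and Sox17 were at 0 in normal brain and Sox17 at 0 in RAS tumors. The 12 pericyte and smooth muscle markers summed to 69.4 to 71.5 CPM, 105 to 139 CPM and 87.0 to 208 CPM in normal brain, PDGFB and RAS tumors. The PDGFB sum was led by Tagln, at 66.5 ± 8.12 CPM there and 23.5 ± 5.81 CPM in normal brain, and by Cspg4, which oligodendrocyte precursors also express, at 32.6 ± 6.12 and 0.630 ± 1.09 CPM. The means of Vtn and Notch3 were lower in PDGFB tumors, at 2.29 and 4.90 CPM, than in normal brain, at 8.62 and 21.3 CPM, and Rgs5 had 0 to 6 reads per PDGFB tumor and 4 to 9 per normal library. Myh11 was at 0 in both tumor groups and Acta2 in normal brain.

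The 12 fibroblast and meninges markers summed to 24.8 to 43.5 CPM in normal brain, 178 to 299 CPM in PDGFB tumors and 164 to 460 CPM in RAS tumors. The 460 CPM came from RAS tumor 5 alone, and the other RAS tumors lay at 164 to 188 CPM, within or below the PDGFB range. Different genes made up these sums. Pdgfra, which oligodendrocyte precursors also express, held 218 ± 61.1 CPM in PDGFB tumors, while Col1a1, Col1a2 and Col3a1, the fibrillar collagens of fibroblasts, held 46.3 ± 44.4, 68.7 ± 52.5 and 42.3 ± 32.6 CPM in RAS tumors and 4.60 ± 5.13, 4.92 ± 5.63 and 6.87 ± 4.31 CPM in PDGFB tumors (SD, n = 5 each). Lum and Igf2 were at 0 in normal brain, Slc6a13 in both tumor groups and Igf2 in RAS tumors. The part of these cell types in the values of Nid1, Hspg2, Fbln2 and the laminins was not tested.

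Sums for markers of other cell types differed between the groups as well. The 8 macrophage and microglia markers summed to 347 to 375 CPM in normal brain, 269 to 341 CPM in PDGFB tumors and 498 to 674 CPM in RAS tumors. Csf1r led these sums, at means of 248, 197 and 281 CPM. From normal brain to PDGFB tumors the means of Csf1r, Cx3cr1 and P2ry12 fell. Those of Lyz2, Itgam, Cd68, Aif1 and Ptprc rose, Lyz2 from 3.38 to 20.8 CPM. Of the 4 macrophage and microglia markers tested, 1 was called higher and 1 lower between these groups. The 8 neuron markers summed to 1430.5 to 1524 CPM in normal brain, 62.7 to 268 CPM in PDGFB tumors and 206 to 442 CPM in RAS tumors. In RAS tumors most of that sum was Nefl, a neurofilament chain, at 223 ± 72.6 CPM (SD, n = 5), against 11.7 ± 7.51 CPM in PDGFB tumors (SD, n = 5) and 135 ± 12.6 CPM in normal brain (SD, n = 3). Of the 8 neuron markers, 7 were called lower in RAS tumors than in normal brain, and Snap25 held 404 ± 33.6 CPM in normal brain, 38.1 ± 25.4 CPM in PDGFB tumors and 17.5 ± 29.6 CPM in RAS tumors. Mature oligodendrocyte markers (7 genes) summed to 1574 to 2312 CPM in normal brain, 808 to 892 CPM in PDGFB tumors and 596 to 916 CPM in RAS tumors. Astrocyte markers (8 genes) ranged over 616 to 778 CPM, 194 to 484 CPM and 102 to 650 CPM, and choroid plexus and ependyma markers (5 genes) over 57.8 to 143 CPM, 0 to 4.96 CPM and 0 to 6.57 CPM.

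**Figure D5:**
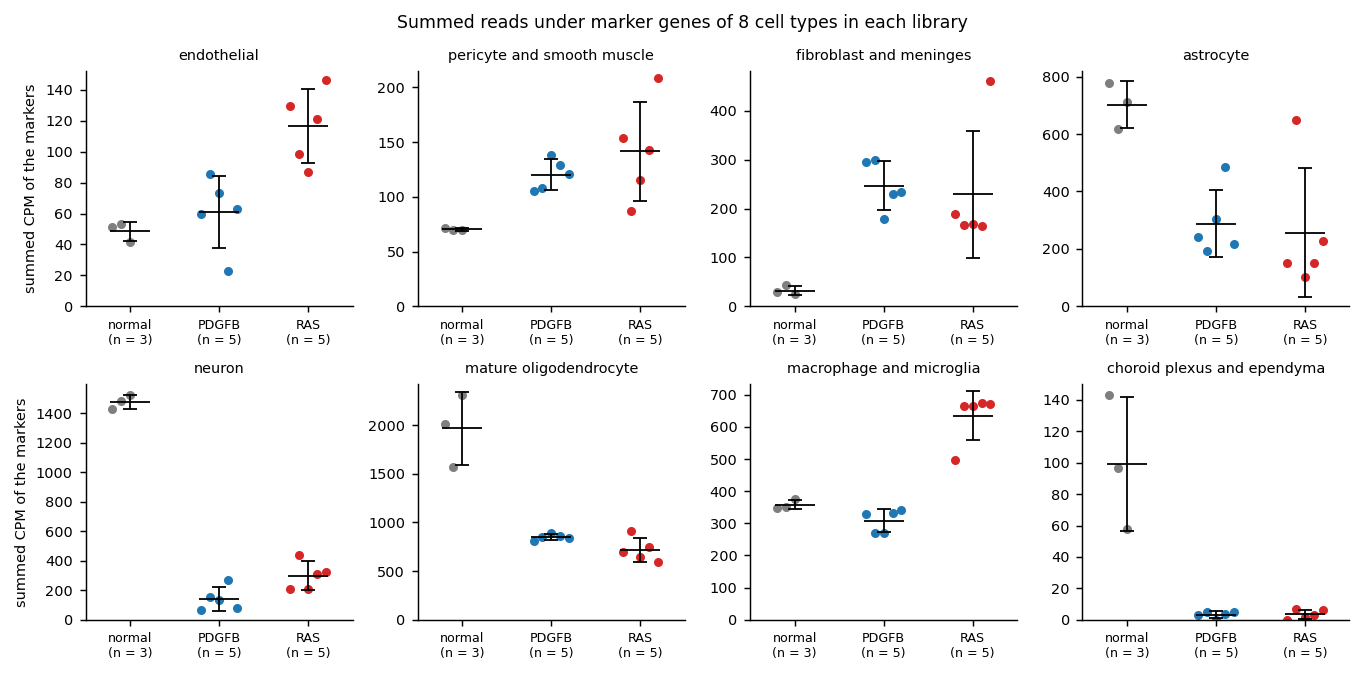
Summed CPM of the markers of 8 cell types in each library of normal brain (n = 3), PDGFB tumors (n = 5) and RAS tumors (n = 5), with 1 panel per cell type, bars at the mean and whiskers of 1 SD. Endothelial markers reach 86.6 to 146 CPM in RAS tumors and up to 85.4 CPM in PDGFB tumors, and neuron markers are highest in normal brain.

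The genes with the most similar patterns were found for the 3 tested genes of highest mean CPM, Lamb1, Fbln2 and Nid1, by the root mean square difference of centred log2 CPM over the 13 libraries. Closest to Lamb1 were Htra1, a secreted protease (0.473), and Fth1, the ferritin heavy chain (0.536). Fth1 held 344 CPM in normal brain, 149 CPM in PDGFB tumors and 731 CPM in RAS tumors, the order of Lamb1. Closest to Fbln2 were Anxa1, an annexin (0.408), and the membrane protein gene Emp1 (0.551). Closest to Nid1 were Akr1b8, an aldo-keto reductase (0.342), and Anxa5, another annexin (0.350). Anxa1 had no read in normal brain, 1.29 CPM in PDGFB tumors and 81.4 CPM in RAS tumors. These neighbours were ranked over libraries that fall into 3 groups, so the likeness is mostly one of group means.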

How the data were processed

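Polyadenylated RNA of 10 tumors and 3 pieces of normal brain was extracted with Trizol and prepared with a TruSeq RNA kit, per the labels' protocols. The authors deposited raw counts, whole reads per Ensembl gene with no normalization; GRCm38, STAR 2.7.9a and fastp 0.22.0 are given in the submitters' processing notes. Annotation and strand setting are not given in the sources used here. Groups came from titles and, for normal brain, the tissue label. Symbols, exons and strands were matched by identifier to GENCODE M21, which held 52135 of 55416 rows and all 10 genes.

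The 10 genes and all lists were chosen with earlier results of these data known. Genes were tested with edgeR 4.0.16 (R 4.3.3): filterByExpr (minimum count 10, minimum total 15), TMM factors on totals of the 7722 genes kept, and a quasi-likelihood fit with 1 coefficient per group over 13 libraries. The procedure was tested on simulated data. CPM used all gene reads, of which each library held 529162 to 643055. Where a group had no read, the mean of the other group was set against a floor of 3 reads in total. The lower 95% limit of the exact interval is given beside it. Where it had 1 to 3, the ratio of counts has a 95% exact counting interval. Beyond the 10 genes and their opposite rows, the text names per comparison up to 4 called genes of the list of 67 with the largest change, and for the 3 tested genes of highest mean CPM the 2 nearest patterns among genes with a symbol that is not a predicted one. Alternatives were DESeq2 1.42.0, limma-voom (limma 3.58.1), scaling by library totals or by median-of-ratios factors, testing without a filter or with 1 CPM in 3 libraries as the minimum, both strands summed, fits restricted to the compared groups, each library left out and a replicate block. A fit of genes with no exon on the opposite strand was added after seeing the data. Values for some listed genes are not reported here, but the counts include those genes.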

Additional observations from a re-analysis of the deposited data

Results flagged for a closer look

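Lamc1 in RAS tumor 5 stood at 88.6 CPM, far above the other 4 RAS tumors, whose highest value was 44.5 CPM. Without that library, Lamc1 was still higher in RAS than in PDGFB tumors, by 1.10 on the log2 scale. Among groups of 5, chance sets about 1 library in 20 groups apart in this way.

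The change from normal brain differed between the tumor types for 5 genes, by the test of RAS against PDGFB tumors in the fit of all libraries. That is the comparison between the tumors given above and not a further test, and 32.1% of all genes tested were called in it. The log2 difference was 5.74 for Fbln2, 3.93 for Nid1, 3.10 for Lamb1, 2.32 for Hspg2 and 1.45 for Lamc1. Only for Lamb1 did the changes have opposite signs, -2.11 in PDGFB and 0.98 in RAS tumors.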

How the results depend on the processing

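Of the 6 tested genes, 3, 6 and 5 were called in PDGFB tumors against normal brain, RAS tumors against normal brain and RAS against PDGFB tumors. Leaving out 1 library at a time gave 3 to 4, 5 to 7 and 5 called genes. In each fit that left out a normal library, 7 genes passed the filter and were tested in place of 6. Summing both strands raised the number tested from 6 to 8, with the pairs of Nid2 and Rtraf and of Lama2 and Gm48084 added, and 5, 8 and 7 were called. The Lama2 pair was called over normal brain (edgeR adjusted p = 0.00682) and over PDGFB tumors (edgeR adjusted p = 0.00132) in RAS tumors. No fold change of a tested gene reversed in any alternative run. With genes that have no exon on the opposite strand alone (3196 tested in place of 7722), 1320, 1721 and 924 of all genes were called, in place of 3498, 4340 and 2476, and 7, 15 and 10 of 15 other basement membrane genes, in place of 16, 26 and 17 of 28. The replicate block, fitted on the tumors alone, gave the same count of 5 tested genes called and 11 of 21 other basement membrane genes. Same-numbered tumors correlated by -0.128 to 0.139, and 1 of the 5 numbers matched best with its own, so the numbers were not taken as pairs. Lama2, Lama5, Lamb2 and Nid2 had at most 13 reads in any library, too few to pass the filter in the fit of all libraries. The part of depth and of strand in these low counts was not tested.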

Other observations

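Enzymes that modify collagen were uneven in RAS tumors. Of the 9 assembly and modifying enzymes tested, 5 were higher and 3 lower in RAS tumors than in normal brain, with 4 higher and 0 lower between RAS and PDGFB tumors; of all genes tested, 26.9% and 29.3% were higher and lower in the first comparison and 17.4% and 14.6% in the second. Plod2, which hydroxylates collagen lysines, was higher by 3.69 on the log2 scale (edgeR adjusted p = 1.74e-04), while its relative Plod3 was lower by -0.56 (edgeR adjusted p = 0.0269). Exons of Gm38391 and Znhit1 lie opposite Plod2 and Plod3, so without the strand setting the reads of each pair cannot be told apart. Pxdn, the peroxidasin that cross-links type IV collagen, was 5.66-fold higher (edgeR adjusted p = 3.55e-04). Sparc, a matrix protein that binds type IV collagen, held 69.3 ± 12.5 CPM (SD, n = 3) in normal brain, 83.4 ± 26.0 CPM (SD, n = 5) in PDGFB tumors and 588 ± 199 CPM (SD, n = 5) in RAS tumors. Agrn, the proteoglycan agrin of vessels and synapses, was higher in both tumor groups than in normal brain, by 1.82 in PDGFB and 1.34 in RAS tumors. These genes were picked from the list after their values were seen.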
